A study of Mus musculus with 26 samples.

Results

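The genes of the lysosome and of autophagy described here are 41 symbols chosen by name: 6 cathepsins, 9 enzymes of glycan and lipid breakdown, 5 genes of the lysosome membrane and of sterol export, the regulators Tfeb and Tfe3, 5 proton pump subunits, and 14 autophagy genes. These genes and the other lists below were chosen with earlier results of these data known. All 41 were found in both deposited tables, among 19404 genes in the first and 19719 in the second. All had a mean of at least 10 normalized reads in both tables, so no member was lost to a filter on low values.

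The lysosome digests proteins, sugars and lipids with enzymes that work at acid pH. A proton pump, the v-ATPase, keeps its lumen acid, and autophagy brings it cytoplasm and organelles enclosed in a membrane. The basic helix-loop-helix factors TFEB and TFE3 activate many lysosome and autophagy genes through the CLEAR element, a form of the E-box CACGTG found near the start of those genes. TFEB is held in the cytoplasm while mTORC1 kinase is active on the lysosome surface, and calcium released through the channel mucolipin 1 favours its entry into the nucleus. In pro-B cells, the marrow precursors of B lymphocytes that grow on interleukin-7, these genes serve the turnover of cell components.

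The data were polyadenylated RNA sequenced from cultured bone marrow pro-B cells of C57/Bl6 mice in which Brg1 was lost. Brg1, encoded by Smarca4, is the ATPase of SWI/SNF chromatin remodelling complexes. In the deletion experiment, marrow cells positive for the B-lineage marker B220 grew for 7 days with IL7 and SCF, and both groups received 0.3 µM tamoxifen for the last 60 hours. The 2 control libraries carried Brg1+/+ x ER-Cre and the 2 Brg1-deleted libraries Brg1F/F x ER-Cre, so controls too held the tamoxifen-activated recombinase. Its promoter, and whether a culture pooled several mice, are not given in the sources used here. The knockdown experiment used cells that all lacked Rag1, and hence could not rearrange their antigen receptor genes. Its 3 control and 3 Brg1 knockdown libraries came from cultures of 7 days infected on days 3 and 4 and enriched with beads for human CD25. No separate mice or cultures are named for the replicates, so p-values measure the spread between these libraries, which may be technical. The other 16 samples of the series, of open chromatin and protein binding, were not analysed here.

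Values are mean normalized reads per group as deposited. Those of the deletion experiment were also resolved into the whole reads of its 2 libraries per group for 38 of the 41 genes, all but Psap, Npc2 and Ctsb. The libraries are named by their depth, deeper or shallower, because the table carries no replicate numbers. Group means summed to 10359916 and 10112796 normalized reads in the deletion experiment and to 8878602 and 8607181 in the knockdown experiment. Smarca4 fell from 17898 to 6067 reads in the first (adjusted p = 0.0008 in the authors' deposited table) and from 13340 to 6743 in the second (adjusted p = 0.0472). The 14 listed pro-B markers made up 0.585% of control and 0.880% of Brg1-deleted reads, and 0.542% and 0.643% in the knockdown experiment. Of these 14, Cd79b alone was called in the deletion, higher (8045 and 20542, adjusted p = 0.0106 in the authors' deposited table), against 0.732% of all genes. The 8 T cell markers made up 0.00505% and 0.00590% of reads in the deletion, where Cd3e stood at 5.00 and 3.61, and of them Thy1 alone was called, lower (266 and 42.2, adjusted p = 1.07e-05 in the authors' deposited table).

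Libraries of the deletion experiment also differed within each group in transcripts of other blood cells. Of 18 listed macrophage markers, 16 were higher in the shallower than in the deeper control and higher in the deeper than in the shallower Brg1-deleted library. Their sums were 3743 and 12212 reads in the deeper and the shallower control, and 9664 and 2860 in the deeper and the shallower Brg1-deleted library. The complement gene C1qb read 11.7 and 210, then 117 and 9.30, and the receptor Csf1r 259 and 913, then 683 and 186, in that order of libraries. Lyz2, the most abundant, read 2086 and 5288, then 3335 and 1527. This order was not particular to macrophage markers. It was also found in 8 of 9 mast cell and basophil markers, with sums of 279 and 808, then 830 and 299. Of 8 T cell markers 6 had it, and of 8 dendritic cell markers 4, against 35.0% of all resolved genes. Of 10 resolved neutrophil markers 7 went the other way in both groups, with sums of 1590 and 1043, then 129 and 764, and S100a8 read 208 and 13.0, then 0.864 and 134. All 4 resolved pro-B markers also had this opposite order, with sums of 5093 and 3470, then 2621 and 7567. Between groups all 11 listed neutrophil markers had lower means in the Brg1-deleted libraries, with 0.0337% and 0.00949% of reads. The authors' deposited table called 3 of them lower, the granule protease genes Elane, Prtn3 and Ctsg, against 0.742% of all genes, and their part in the results below was not tested. In the knockdown 6 of the 11 were above 0 and none was called. Macrophage markers made up 0.0770% of control and 0.0619% of Brg1-deleted reads, against 0.00932% and 0.0127% in the control and knockdown groups of the Rag1-null cultures, where C1qa stood at 0.563 and 0.605 reads. Macrophages are rich in lysosomes, so lysosomal values are given below with this order of libraries. In bulk samples, fewer cells of a type and less RNA per cell cannot be told apart.

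Sequences upstream of the members were examined because the list includes the TFE factors and genes they are known to activate. RefSeq promoters (GRCm38.p6, 250 bases before to 50 after each start) were found for 34 of the 41 genes. The E-box CACGTG, which reads the same on both strands, occurred in 14 of these 34 genes, against 11.2% of 11196 genes with a promoter entry and in both tables. The longer core TCACGTGA, which always contains a CACGTG, occurred in 6 of the 34, against 2.01% of the same 11196 genes. In the other lists of these pathways, described below, shares were lower. The E-box occurred in 16.7% of 24 enzymes of the lumen, 25% of 20 membrane genes and 15.4% of 13 pump genes. It occurred in 8% of 25 autophagy genes and 22.2% of 27 genes of mTORC1 and related regulators. The core occurred in 0, 4, 1, 1 and 0 of these genes, in that order. The member counts thus describe the 41 genes chosen by name. The 30 bases around each core, and around 2 E-boxes without it, are shown 5′ to 3′ on the gene's strand, with the motif in capitals, because these genes span the range from the largest called change among the members to none.
Mcoln1, chr8:3500462-3500491, plus strand: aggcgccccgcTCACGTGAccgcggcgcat
Mcoln1, second site, chr8:3500436-3500465, plus strand: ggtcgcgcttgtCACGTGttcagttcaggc
Ctsa, chr2:164833749-164833778, plus strand: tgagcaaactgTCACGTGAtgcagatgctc
Ctsa, second site, chr2:164833766-164833795, plus strand: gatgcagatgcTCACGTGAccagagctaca
Atp6v0d1, chr8:105566050-105566079, minus strand: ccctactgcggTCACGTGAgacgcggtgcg
Atp6v1a, chr16:44139373-44139402, minus strand: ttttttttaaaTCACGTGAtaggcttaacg
Ctsd, chr7:142387908-142387937, minus strand: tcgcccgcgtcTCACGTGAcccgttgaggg
Gla, chrX:134601215-134601244, minus strand: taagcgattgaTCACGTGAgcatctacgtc
Gla, second site, chrX:134601182-134601211, minus strand: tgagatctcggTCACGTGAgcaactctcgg
Lamp1, chr8:13159088-13159117, plus strand: agggcaagatatCACGTGgtccagcgccca

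The cores began 46 bases before the RefSeq start in Mcoln1, 132 in Atp6v1a, 99 in Ctsd, 228 and 195 in Gla and 4 in Atp6v0d1, whose core spans the start. The deposited annotation begins some of these genes upstream of their cores. It begins Mcoln1 at base 3500457, Ctsa at 164832873 and, on the minus strand, Ctsd at 142388038 and Atp6v1a at 44139705. The cores of Ctsa lay 13 bases before and at base 5 after the second of its 2 RefSeq starts. Lamp1 had 4 E-boxes without the core, of which the one shown begins 61 bases before the start. The 6 genes with the core had a median log2 fold change of 0.61 in the deletion experiment, with a range of -0.02 to 1.44. All 14 genes with an E-box, which include these 6, had a median of 0.32, with a range of -0.31 to 1.44. The 20 genes with an entry and no E-box had one of 0.24, with a range of -0.64 to 1.77. The medians in the knockdown were 0.49, 0.32 and 0.17 in the same order. Because the 14 include the 6, these are not medians of separate sets. Genes with an E-box and no core ranged from -0.31 (Glb1) to 0.75 (Gaa) in the deletion. A match is a description of these letters and not a measured binding site.

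Loss of Brg1 was accompanied by higher mean levels of most of the 41 genes, but Mcoln1 was the single member called. In the deletion experiment 31 of 41 log2 fold changes were above 0, against 49.9% of all listed genes, with a median of 0.20 (range -0.64 to 1.94). In the knockdown experiment 32 of 41 were above 0, against 49.7%, with a median of 0.20 (range -0.32 to 2.31). In the authors' deposited table of the deletion, Mcoln1 alone passed an adjusted p of 0.05, upward, where 0.732% of all genes did. No member was called in the knockdown, where 0.177% of all genes were called higher, and the authors' adjusted p was 1.0 for each of the 41. At an unadjusted p of 0.05 the deposited tables held 7 members higher and 0 lower in the deletion, against 4.23% and 5.29% of all genes. They held 3 higher and 0 lower in the knockdown, against 1.67% and 1.08%. The 7 were Mcoln1, Ctsa, Atp6v0a1, Atp6v0d1, Gabarap, Map1lc3b and Ulk2, and the 3 were Atp6v0a1, Atp6v0d1 and Gabarap.

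Library by library, 17 of the 38 resolved members had both Brg1-deleted libraries above both controls, and 3 (Gusb, Glb1 and Atg5) had both below. Over the 12013 genes resolved at a mean of 10 or more, the shares were 27.4% and 27.3%. A ratio of group means of at least 1.5 was reached upward by 13 members in the deletion and 8 in the knockdown, against 16.6% and 7.68% of genes with a mean of at least 10. The same ratio downward was reached by 1 member, Gusb, in the deletion, and by 0 in the knockdown, against 16.6% and 5.09% of those genes.

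**Figure D1:**
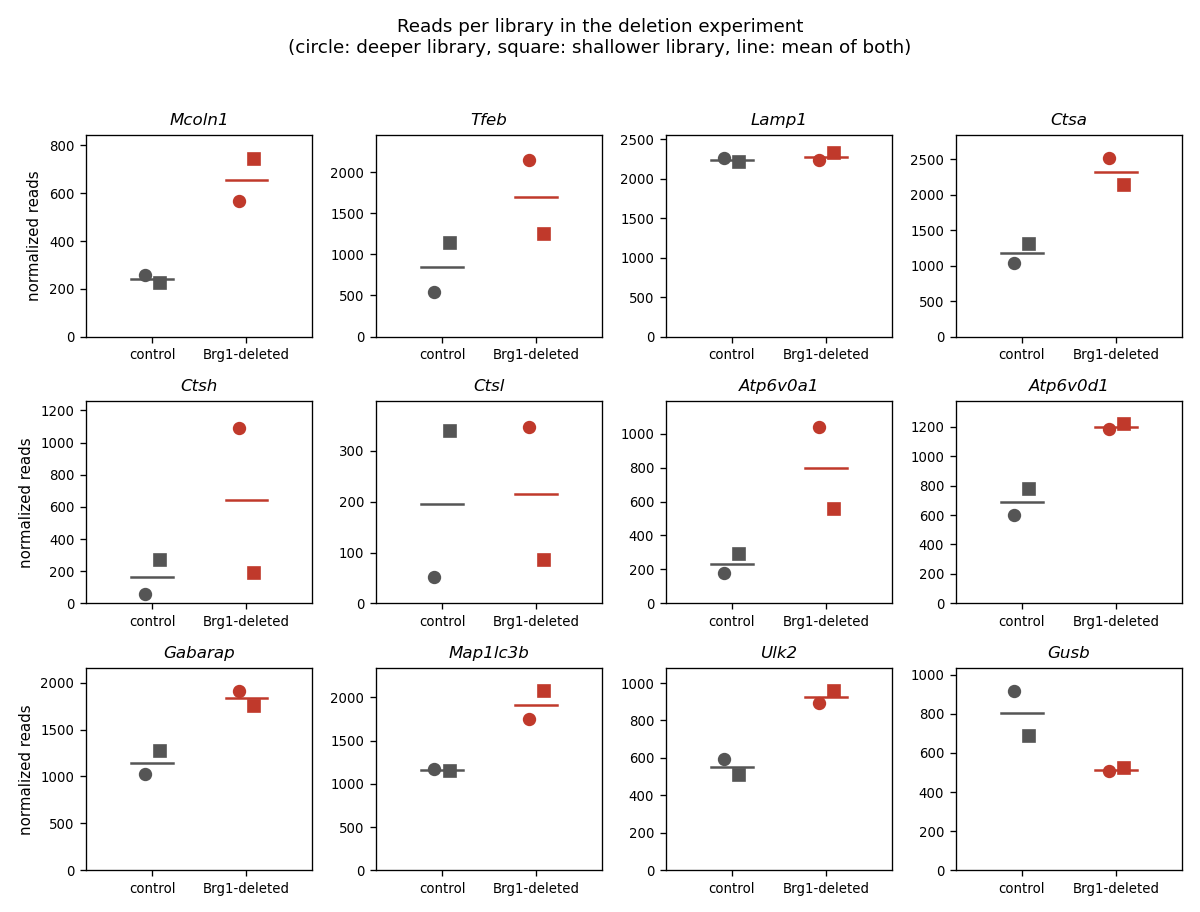
Normalized reads of 12 members in each library of the deletion experiment, on linear axes from 0. Circles mark the deeper and squares the shallower library of a group (n = 2 per group), and lines mark their mean. Mcoln1, Ctsa, Atp6v0a1, Atp6v0d1, Gabarap, Map1lc3b, Ulk2 and Tfeb had both Brg1-deleted libraries above both controls, Gusb had both below, and Lamp1, Ctsh and Ctsl overlapped.

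Mcoln1 encodes mucolipin 1, the calcium and cation channel of the lysosome membrane. It lies at chr8:3500457-3515232 on the plus strand (mm10). It read 257 and 226 in the deeper and the shallower control and 569 and 743 in the deeper and the shallower Brg1-deleted library. Both depleted libraries were above both controls, and the order within groups was opposite to that of the macrophage markers. It was the order of the 4 resolved pro-B markers, whose part in the Mcoln1 values was not tested. Mcoln1 rose 2.71-fold, from 242 to 656 mean reads (log2 1.44, p = 0.0001, adjusted p = 0.0164 in the authors' deposited table). With limma on the 4 resolved libraries the log2 fold change was 1.43 ± 0.22 (SE, n = 2 per group) and the adjusted p = 0.129. That fit called 0 of 16966 genes, with 2860 at an unadjusted p below 0.05. In the knockdown Mcoln1 had means of 245 and 426, a log2 fold change of 0.80 and p = 0.2174 in the authors' deposited table.

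None of the other membrane and sterol genes was called. Lamp1, the main glycoprotein coat of the lysosome membrane, read 2257 and 2215 in the controls and 2238 and 2322 in the Brg1-deleted libraries, and its knockdown means were 1834 and 1947. Its log2 fold changes were 0.03 ± 0.14 (limma SE, deletion) and 0.09. Lamp2, which also takes part in autophagy, had log2 fold changes of 0.11 and 0.17. Npc1 and Npc2 hand cholesterol out of the lysosome. Npc1 gave 0.10 and 0.31. Npc2 had means of 2661 and 4029 in the deletion (log2 0.60, with p = 0.0768 in the authors' deposited table). Its knockdown means were 2103 and 2705 (0.36, the authors' p = 0.2082).

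Of the TFE regulators, Tfeb had the higher fold. It read 539 and 1144 in the deeper and the shallower control and 2153 and 1243 in the deeper and the shallower Brg1-deleted library. The groups did not overlap, but the lower depleted library stood only a little above the higher control. Within each group the order was that of the macrophage markers. The log2 fold change was 1.01 in the authors' deposited table (p = 0.0917, adjusted p = 0.8531) and 1.06 ± 0.44 (SE) with limma. Leaving out 1 library gave 0.52 without the deeper control, 1.60 without the shallower control, 0.66 without the deeper Brg1-deleted library and 1.45 without the shallower one. Between the 2 libraries low in macrophage markers it was 1.21, and between the 2 high in them 0.91. The knockdown means were 794 and 1048 (log2 0.40, the authors' p = 0.5186). Tfe3 read 371 and 383 in the controls and 413 and 364 in the Brg1-deleted libraries, and gave log2 fold changes of 0.04 in both experiments.

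The proton pump had 4 of its 5 members above 0 in both experiments, with medians of 0.41 and 0.26. The 2 members from its membrane sector were the ones below an unadjusted p of 0.05 in both. Atp6v0a1, an isoform of the subunit through which protons pass, read 178 and 289 in the controls and 1038 and 557 in the Brg1-deleted libraries, deeper first. It thus did not overlap between groups, though within groups it followed the order of the macrophage markers. Its means were 234 and 797 in the deletion, a 3.41-fold difference (log2 1.77, p = 0.0113, adjusted p = 0.2919 in the authors' deposited table). They were 115 and 282 in the knockdown, a 2.45-fold difference (log2 1.29, the authors' p = 0.0095). Between the 2 libraries low in macrophage markers the log2 ratio was 1.64, and between the 2 high in them 1.84.

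Atp6v0d1, which joins the membrane sector to the rotating stalk, read 598 and 775 in the controls and 1184 and 1215 in the Brg1-deleted libraries. The depleted libraries lay close together and above both controls. The log2 fold change was 0.81 (p = 0.0186, adjusted p = 0.3818, the authors' deposited table), or 0.82 ± 0.19 (SE) with limma. The knockdown means were 536 and 813 (log2 0.60, the authors' p = 0.0475). Among the members, those of the peripheral sector, which splits ATP, had smaller values. The catalytic subunit gene Atp6v1a read 1270 and 1174, then 1541 and 1712 (log2 0.41), with 0.26 in the knockdown. Atp6v1b2 gave 0.04 and 0.10, and Atp6v1h, a regulatory subunit, -0.28 and -0.15.

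**Figure D2:**
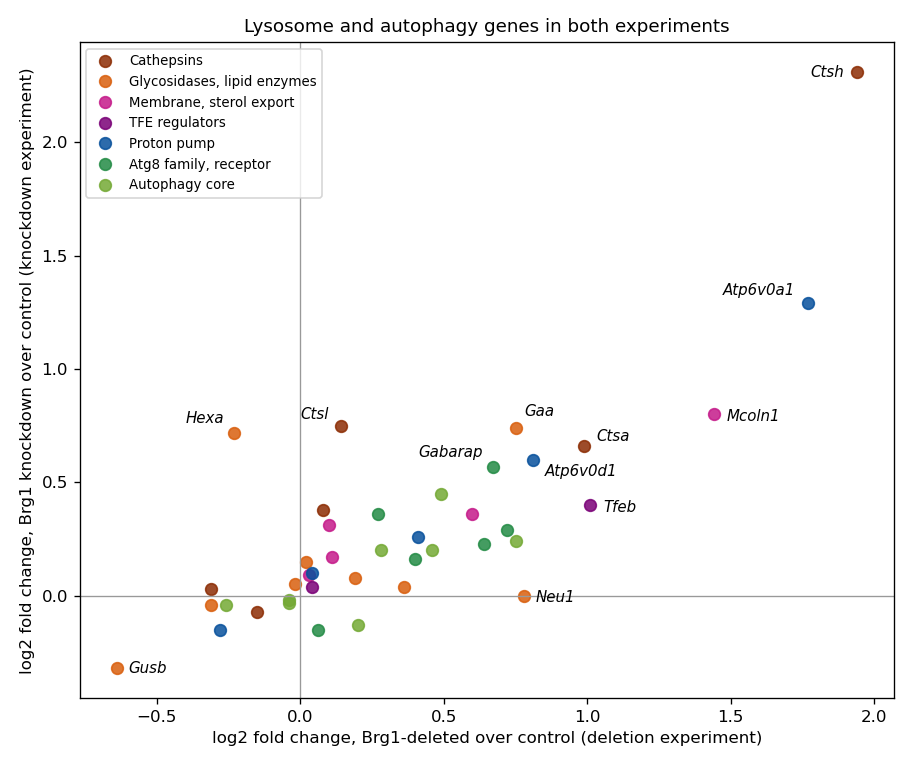
Log2 fold change of each of the 41 members in the deletion (x axis) and the knockdown (y axis), coloured by function. Ctsh (1.94 and 2.31), Atp6v0a1 (1.77 and 1.29) and Mcoln1 (1.44 and 0.80) lie farthest to the upper right, and 29 of the 41 points are above 0 on both axes.

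The cathepsins, proteases of the lysosome lumen, differed among themselves. Ctsa, a carboxypeptidase that also protects sialidase and beta-galactosidase, read 1035 and 1311 in the controls and 2517 and 2137 in the Brg1-deleted libraries. The groups were well apart. Its log2 fold change was 0.99 in the authors' deposited table (p = 0.0027, adjusted p = 0.1277) and 0.99 ± 0.19 (SE) with limma, and 0.66 (p = 0.2531) in the knockdown, where the means were 771 and 1221. Between the 2 libraries low in macrophage markers the log2 ratio was 1.05, and between the 2 high in them 0.94.

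Ctsh, a cysteine protease that trims peptides from their amino end, had the highest ratio of means of the 41 genes in both experiments and did not pass either test. It read 60.5 and 273 in the controls and 1090 and 190 in the Brg1-deleted libraries. The shallower depleted library thus fell between the controls. The means were 167 and 640 (log2 1.94, p = 0.2617 in the authors' deposited table, and 1.82 ± 1.04 SE with limma). Its limma log2 fold change was 0.56 without the deeper and 3.08 without the shallower Brg1-deleted library, and at 0.56 it lies under the lowest such values of Atp6v0a1 (1.29) and Mcoln1 (1.24). In the knockdown they were 82.9 and 410 (log2 2.31, the authors' p = 0.0659). Between the libraries low in macrophage markers the log2 ratio was 1.65, and between those high in them 2.00.

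The other resolved cathepsins followed the macrophage markers and overlapped between groups. Ctsl read 52.7 and 338 in the controls and 346 and 84.9 in the Brg1-deleted libraries, so that its libraries differed more within than between groups. Ctsd, the main aspartic protease, read 1240 and 2740, then 2829 and 1383, and gave a limma log2 fold change of 0.10 ± 0.49 (SE). Ctsz read 931 and 1272, then 1013 and 765 (log2 -0.31). Ctsb, not resolved, had means of 3360 and 3036 (log2 -0.15). Their knockdown log2 fold changes were 0.75 for Ctsl (42.7 and 71.7, the authors' p = 0.1273), 0.38 for Ctsd, 0.03 for Ctsz and -0.07 for Ctsb.

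All 5 resolved cathepsins had the macrophage order of libraries, against 32.6% of the 12013 genes resolved at a mean of 10 or more. Of the 8 resolved glycan and lipid enzymes, 4 had that order and 4 the opposite. Together, 9 of these 13 enzymes of the lumen had the macrophage order. Of the 14 autophagy genes 3 had it, and 9 had the opposite order, against 40.4% of those genes. The part of RNA from macrophages, or from the other cell types whose markers had either order, in these values was not tested. Among all 38 resolved members, 28 were above 0 both between the libraries low and between those high in macrophage markers, against 39.1% of the 12013 genes.

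**Figure D3:**
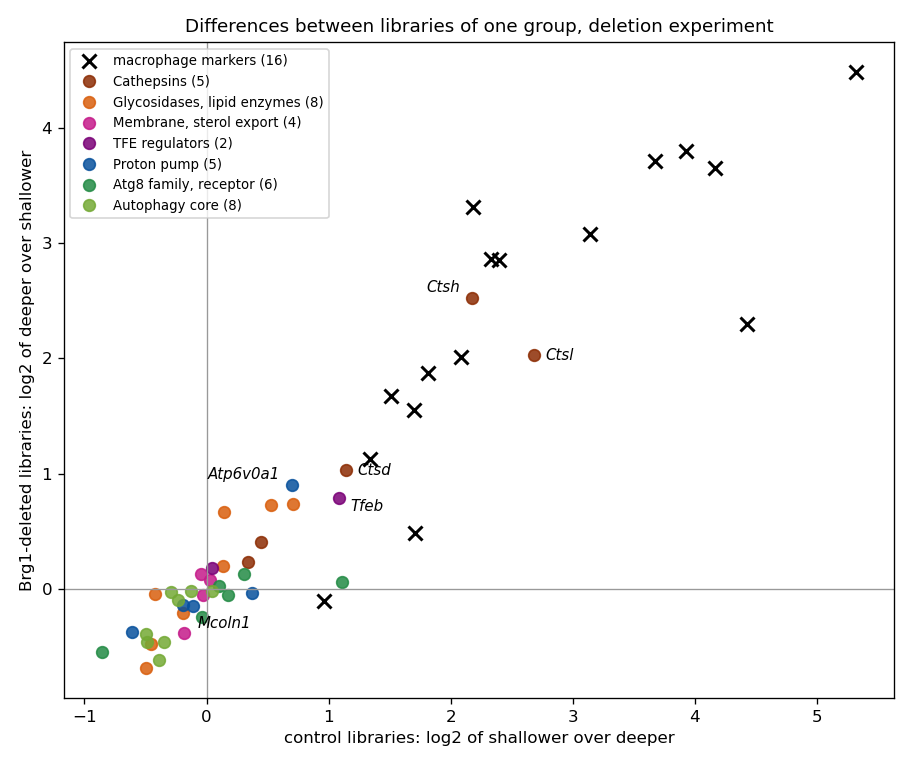
Differences between the 2 libraries of one group for 38 members (circles) and 16 macrophage markers detected in all 4 libraries (crosses). The x axis is the log2 ratio of the shallower to the deeper control and the y axis that of the deeper to the shallower Brg1-deleted library. Ctsl and Ctsh lie among the markers at the upper right, and Mcoln1 lies below 0 on both axes.

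Enzymes of glycan and lipid breakdown stayed near 0 as a group, with medians of 0.02 in the deletion and 0.05 in the knockdown. Gaa, the acid alpha-glucosidase that degrades glycogen, read 331 and 242 in the controls and 403 and 561 in the Brg1-deleted libraries. Its log2 fold change was 0.75 (p = 0.0508) and, in the knockdown, 0.74 (p = 0.2954) in the authors' deposited tables. Neu1, the lysosomal sialidase, read 469 and 332, then 527 and 849 (log2 0.78, the authors' p = 0.1234), and gave 0.00 in the knockdown, with a mean of 280 in both groups. Gusb, beta-glucuronidase, read 918 and 687 in the controls and 506 and 523 in the Brg1-deleted libraries, and so lay below both controls. Its log2 fold change was -0.64 (p = 0.0645, adjusted p = 0.7342 in the authors' deposited table), and -0.32 (p = 0.1383) in the knockdown.

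None of the 9 enzymes of this group had an unadjusted p below 0.05 in either deposited table. Glb1, beta-galactosidase, read 389 and 341, then 274 and 316, both below both controls (log2 -0.31), and gave -0.04 in the knockdown. Hexa, a subunit of hexosaminidase, read 228 and 372, then 320 and 192 in the macrophage order (log2 -0.23), against 0.72 (the authors' p = 0.4441) in the knockdown. Naglu, which acts on heparan sulfate, gave 0.36 and 0.04. Lipa, the acid lipase, gave 0.19 and 0.08. Gla, alpha-galactosidase A, gave -0.02 and 0.05. Psap, the precursor of the saposins that help lipid enzymes, gave 0.02 and 0.15.

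Among autophagy genes the Atg8 family, whose proteins are coupled to lipid on the growing autophagosome, stood highest, with 5 of 5 above 0 in both experiments. Gabarap read 1027 and 1268 in the controls and 1912 and 1750 in the Brg1-deleted libraries, with a gap between groups larger than the difference within either. Its log2 fold change was 0.67 (p = 0.0413, adjusted p = 0.5911, the authors' deposited table) or 0.68 ± 0.18 (SE) with limma. In the knockdown the means were 819 and 1216 (log2 0.57, the authors' p = 0.0446). Map1lc3b, the LC3 form used most often to follow autophagosomes, read 1174 and 1143, then 1752 and 2076. Its log2 fold change was 0.72 (p = 0.0354, adjusted p = 0.5468, the authors' deposited table), and 0.29 (p = 0.342) in the knockdown.

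Gabarapl2 read 338 and 382, then 467 and 485 (log2 0.40), without overlap. Map1lc3a, the lowest of the family, read 36.1 and 78.1, then 90.7 and 87.2 (0.64). Gabarapl1 read 461 and 254, then 350 and 512, which overlap (0.27). Their knockdown log2 fold changes were 0.16, 0.23 and 0.36, the last with means of 239 and 306 (the authors' p = 0.2117). Sqstm1, the receptor p62 that ties ubiquitinated cargo to Atg8 proteins, read 1486 and 1591, then 1615 and 1585, and gave 0.06 ± 0.15 (limma SE, deletion) and -0.15 in the knockdown.

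Of the core machinery, the kinase gene Ulk2 was the one below an unadjusted p of 0.05. It read 597 and 509 in the controls and 896 and 958 in the Brg1-deleted libraries (log2 0.75, p = 0.0335, adjusted p = 0.5354, the authors' deposited table). The knockdown value was 0.24 (the authors' p = 0.368). Ulk1, its close relative, read 723 and 516, then 717 and 984 (log2 0.46), and 0.20 in the knockdown. Atg14, a subunit of the lipid kinase complex that starts the autophagosome, read 155 and 122, then 164 and 226 (0.49), and had 0.45 (the authors' p = 0.1306) in the knockdown. Atg7, the enzyme that activates Atg8 and Atg12 proteins, gave 0.28 and 0.20.

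The rest of the core lay near or below 0. Becn1, the Beclin 1 gene, gave -0.04 and -0.03. Atg5, part of the conjugate that places Atg8 proteins on membranes, read 478 and 493 in the controls and 403 and 407 in the Brg1-deleted libraries (log2 -0.26), and -0.04 in the knockdown. Wipi2, which binds the lipid made at the site of assembly, gave 0.20 and -0.13, and Wipi1 -0.04 and -0.02. The autophagy genes together had medians of 0.34 in the deletion and 0.20 in the knockdown, and the enzymes of the lumen 0.08 in both. These medians describe lists chosen by name, with earlier results of these data known. They stand beside a median within 0.01 of 0 over all listed genes with a mean of at least 10.

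The 2 experiments share no control libraries, and their log2 fold changes correlated across the 41 genes with Pearson r = 0.78 and Spearman rho = 0.71. Across the 11953 genes with a mean of at least 10 in both tables the values were 0.67 and 0.72, so the members' correlation is close to that of genes in general. Genes are not independent replicates. In 29 of 41 members the change was larger in the deletion, against 75.2% of those genes, and 29 of 41 were above 0 in both, against 38.7%.

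Levels were compared between genes per kilobase of exon and per 1000000 listed reads. Psap was the highest of the 41 in all 4 groups, at 319 and 330 in the control and Brg1-deleted means and 239 and 274 in the control and knockdown means. Lamp1 (95.7 and 100.0, then 91.6 and 100) and Npc2 (78.8 and 122, then 72.6 and 96.4) filled the next places in each group. Wipi1 was the lowest, between 0.682 and 0.885. Among pump subunits Atp6v0d1 was the highest in each group, from 33.7 to 66.2, and Atp6v0a1 the lowest, from 1.98 to 12.0. Of the 41 genes, 35 had a lower level in the Rag1-null than in the deletion controls, with a median ratio of 1.20 between the deletion and the Rag1-null control. The ratio was 1.24 to 3.93 for the 6 cathepsins, and was highest for Ctsl (9.57 and 2.44). Macrophage markers were 0.0770% and 0.00932% of reads in these controls, and their part in the levels was not tested. These tables were normalized separately, so levels set across them carry no test. The share of all genes with a lower level in the Rag1-null control was not computed. The count of 35 therefore cannot be read as particular to the members.

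**Figure D4:**
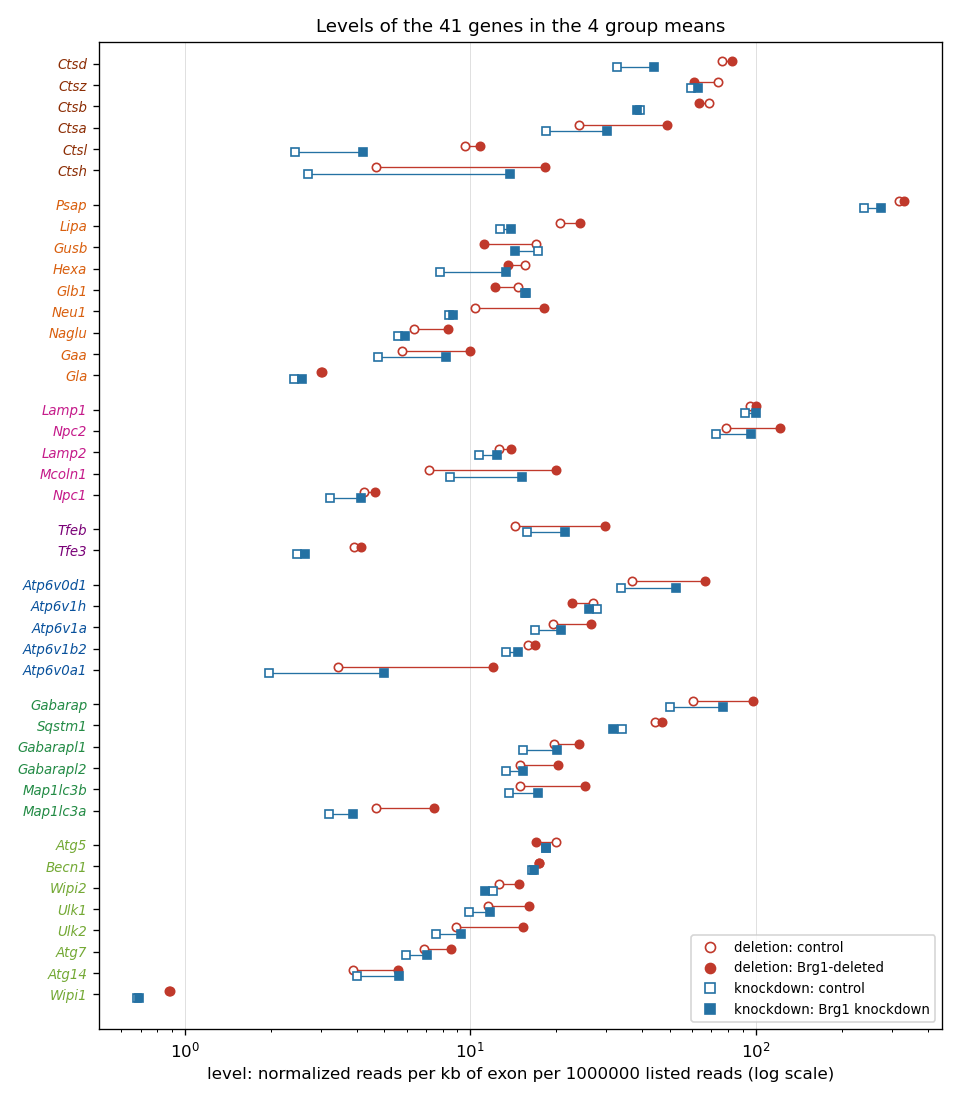
Level of each of the 41 genes in the 4 group means, as normalized reads per kilobase of exon per 1000000 listed reads on a log axis. Open symbols are controls and filled symbols Brg1-depleted groups, circles the deletion (n = 2 per group) and squares the knockdown (n = 3 per group). Psap lies at 239 to 330 and Wipi1 at 0.682 to 0.885.

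Other genes of the same pathways, from lists that do not contain the 41, gave 1 call, in the deletion. There the lists held 32, 32, 25, 14 and 28 measured genes, and 0.732% of all genes were called higher. For lists of these sizes, 1 call is close to that share. Of 32 other autophagy genes, Calcoco1, a cargo receptor that binds Atg8 proteins, rose from 339 to 1116 reads (log2 1.72, adjusted p = 0.0008 in the authors' deposited table). It read 364 and 314 in the controls and 992 and 1240 in the Brg1-deleted libraries, and its knockdown means were 153 and 333 (log2 1.12, the authors' p = 0.1526). With limma its adjusted p was 0.129. At an unadjusted p of 0.05, 6 of the 32 were higher and 0 lower in the deletion, against 4.23% and 5.29% of all genes, and 0 in either direction in the knockdown, against 1.67% and 1.08%. Next by p in the deletion came Atg9a, the lipid scramblase of autophagosome growth (log2 0.93, the authors' p = 0.0102), and Wdr45 (0.95, p = 0.0111). Bnip3, a receptor for mitochondria, had the smallest p of the knockdown (479 and 227, log2 -1.08, the authors' p = 0.0502) and a deletion log2 fold change of 0.04.

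Of 32 other enzymes of the lumen, 28 were above 0 in the deletion, with a median of 0.42, and 26 of 31 in the knockdown, with a median of 0.35. No call was made, and 7 and 3 had an unadjusted p below 0.05, all higher, against 4.23% and 1.67% of all genes. Arsa, which removes sulfate from sulfatides, read 134 and 141 in the controls and 294 and 316 in the Brg1-deleted libraries (log2 1.15, p = 0.0037, adjusted p = 0.1495, the authors' deposited table). In the knockdown the smallest p belonged to Acp5, an acid phosphatase (217 and 418, log2 0.94, the authors' p = 0.0050), and to the protease gene Lgmn (212 and 695, 1.71, p = 0.0282). Of the 32, 17 had the macrophage order of libraries and 3 the opposite.

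Of 25 other lysosome membrane genes, 15 were above 0 in the deletion and 18 in the knockdown. Below an unadjusted p of 0.05 were 3 higher and 1 lower in the deletion, against 4.23% and 5.29% of all genes, and 0 in the knockdown. Ctns, the cystine exporter (log2 1.13, the authors' p = 0.0053), and Slc38a9, the amino acid sensor of mTORC1 on the lysosome (0.93, p = 0.0076), had the smallest values. The other proton pump genes gave 10 of 14 above 0 in the deletion and 11 of 17 in the knockdown, with medians of 0.23 and 0.07. Atp6v0b, in the membrane sector, was the one with an unadjusted p below 0.05 (757 and 1308, log2 0.79, the authors' p = 0.0198). In the deletion these other genes of the membrane sector ranged from -0.28 (Atp6v0c) to 0.79 (Atp6v0b). Those of the peripheral sector ranged from -0.03 (Atp6v1c1) to 0.67 (Atp6v1g2), so the sectors overlapped.

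The 28 genes listed for mTORC1 and related regulators had medians of 0.12 and 0.08. The list is not limited to the lysosome. It also holds the transcription factor genes Foxo1, Foxo3, Mitf and Tfec, and Ddit4 and the sestrin genes. At an unadjusted p of 0.05, 2 were higher and 2 lower in the deletion, where all genes gave 4.23% and 5.29%. In the knockdown 4 were higher and 0 lower, where all genes gave 1.67% and 1.08%. Those higher included Ddit4 in both experiments (the authors' p = 0.0317 and 0.0444) and Foxo3 in the knockdown (the authors' p = 0.0465). Rragb, one of the Rag GTPases that hold mTORC1 at the lysosome, read 96.5 and 62.0 in the controls and 26.8 and 18.6 in the Brg1-deleted libraries (log2 -1.80, p = 0.0022, adjusted p = 0.1142, the authors' deposited table), and -0.15 in the knockdown. Mtor, the kinase itself, had means of 3009 and 1858 (log2 -0.70, the authors' p = 0.0248) and of 4126 and 3093 (-0.42, p = 0.1193). In the knockdown the smallest p belonged to Fnip2 (26.4 and 57.1, log2 1.11, the authors' p = 0.0058) and Fnip1 (423 and 720, 0.77, p = 0.0169), partners of folliculin, which acts on the Rag GTPases. In the deletion Fnip1 gave 0.78 (the authors' p = 0.0350) and Fnip2 -0.09.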

How the data were processed

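RNA of 10 libraries in 4 groups was analysed from 2 deposited tables, one per experiment. Reads were processed with CASAVA, RSEM and DESeq on mm10, per the submitters' processing notes, with no versions or settings given in the sources used here. The authors deposited a normalized mean signal per gene and group, with no values per library. They also deposited log2 fold changes, and p-values with their adjusted form, per the file headers. Calls are the authors' deposited adjusted p below 0.05. A column of the deposited tables marks 13 of the 41 genes as confounded, without saying how this was decided, as for 47.1% of all genes.

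Group means of the deletion table are sums over 2 libraries of whole reads times a fixed step, so each gene's reads were found by search with a tolerance of 6e-05. All 19404 genes had a solution and 95.6% a single one, against 2.48% of random values with any. Resolved genes held 4887746 to 6374398 reads per library. The knockdown means, of 3 libraries, were not resolved. The search and the fit were tested on simulated data. As a second test, limma 3.58.1 in R 4.3.3 was fitted to log2(normalized reads + 0.5) over genes with a mean of at least 1, with Benjamini-Hochberg adjustment over all of them. Log2 fold changes are otherwise the authors', with no pseudocount.

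The members and all gene lists were chosen with earlier results of these data known. Every member is reported. Log2 fold changes with p-values were given for called members and up to 12 per table with the smallest p. Of the other lists, called genes and up to 2 more per table by p were named, with some others to mark a range or what a list holds. Alternatives were a looser threshold, another adjustment, a minimum fold, filters, centring, a pseudocount, limma and leaving out each library.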

Additional observations from a re-analysis of the deposited data

How the results depend on the processing

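No paired analysis was possible because the deposited columns carry no replicate numbers. The Mcoln1 call in the deletion remained with a threshold of 0.1, with p-values adjusted anew, with a minimum fold of 1.5, with a filter on low means and without genes marked as confounded. It was lost with limma on the resolved reads, which called 0 of the 38 resolved members with all 4 libraries and 0 without any one of them. Its log2 fold change stayed at 1.43 with limma and 1.24 to 1.62 without one library (adjusted p 0.129 and 0.154 to 0.436). The knockdown count of 0 held under all its alternatives. Centring, the filter and a pseudocount of 1 moved no group median by more than 0.01. Without genes marked as confounded, the deletion medians became 1.04 for cathepsins (2 genes left, 0.11 with all), 0.10 for glycan and lipid enzymes (0.02), 0.35 for membrane and sterol genes (0.11), 0.64 for the Atg8 family with Sqstm1 (0.52) and 0.37 for core autophagy genes (0.24), and knockdown medians 1.53 for cathepsins (0.52) and 0.20 for core autophagy genes (0.09). Leaving out 1 library, over resolved genes, gave -0.53 to 1.17 for cathepsins, -0.17 to 0.30 for glycan and lipid enzymes, 0.06 to 0.16 for membrane and sterol genes, 0.42 to 0.60 for the Atg8 family with Sqstm1, 0.10 to 0.41 for core autophagy genes, 0.26 to 0.86 for the regulators (0.53) and 0.33 to 0.49 for the pump (0.41). The first 2 groups were below 0 without the deeper control or without the deeper Brg1-deleted library, and above 0 without either shallower library. An alternative chosen after seeing the data took the libraries low or high in macrophage markers alone. The medians were then 0.69 and 0.05 for cathepsins, 0.06 and 0.16 for membrane and sterol genes, 0.64 and 0.38 for the Atg8 family with Sqstm1, and 0.01 and 0.14 for glycan and lipid enzymes. With 2 libraries per group in the deletion and no values per library in the knockdown, the number of libraries limits the precision.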
